A study of Mus musculus with 10 samples.

Results

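Glucose enters a cell through transporters of the Slc2a family, is trapped by a hexokinase and is split to pyruvate by the enzymes of glycolysis in the cytosol. Pyruvate is then either reduced to lactate, which leaves through monocarboxylate transporters, or oxidised in the mitochondrion by pyruvate dehydrogenase (PDH) and the citric acid cycle. Many of the early and late steps have several isoforms, each typical of certain cell types, whereas most PDH and citric acid cycle enzymes are coded by genes used in every cell with mitochondria. The genes described here are 28 of glycolysis, from glucose uptake to lactate export, and 21 of PDH, its kinases, pyruvate carboxylase and the citric acid cycle, together 49 of 35527 gene names on the array. They were taken by gene name from the probes that are not controls. All 49 were found and tested, and 48 were well above background on all 10 arrays. The exception was Slc16a1, below that mark on 1 sham array. One gene, pyruvate kinase of muscle, appears under its older name Pkm2.

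Infrarenal aortas were taken 7 days after surgery from male C57BL/6J mice that were 10 weeks old and on a normal diet. In 5 mice (PPE) the isolated aortic segment had been infused for 5 min at 100 mmHg with porcine pancreatic elastase at 1.5 U/mL in saline, which digests elastic fibres and leads to an abdominal aortic aneurysm (AAA). In 5 mice (sham) it had received saline alone in the same way, so ligation, aortotomy and pressure were shared by both groups. Each of 10 Agilent arrays held unpooled RNA of 1 aorta in red (Cy5) and a Stratagene universal mouse reference in green (Cy3), without dye swap. A level is given as the log2 ratio of aorta over reference at the probe that represents the gene, and a change is the PPE mean minus the sham mean of these log2 ratios, with its standard error. Levels of different probes are not comparable. A difference between genes or sets on an array was therefore used only to compare the groups, and its sign within a group has no meaning.

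Among all 22520 gene names tested, 13.9% were higher and 9.96% lower in PPE at an adjusted p under 0.01 in limma, 25.5% had groups that did not overlap, and the median change was 0.02. Red signal was well above background on 37.6% to 65.8% of probes, lowest on the arrays sham 5 and PPE 5. The labelled tissue was present on every array by its defining smooth muscle genes: 10 of 11 were well above background on all 10 arrays. The aorta was not free of other tissue in either group. On all 10 arrays, 8 of 10 brown fat and 8 of 11 tested skeletal muscle markers were well above background.

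Glycolysis and the mitochondrial steps moved apart. Of the 28 glycolysis genes, 3 were higher in PPE, 6 were lower and 19 were not called, beside 13.9% and 9.96% of all genes. Of the 21 PDH and citric acid cycle genes, 0 were higher, 19 were lower and 2 were not called, so 90.5% were lower. The median change was -0.25 for glycolysis and -1.62 for PDH and the citric acid cycle. The groups did not overlap for 7 glycolysis genes and for 19 of the 21 others, beside 25.5% of all genes. In bulk tissue, fewer cells of a type and less RNA per cell cannot be told apart.

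**Figure D1:**
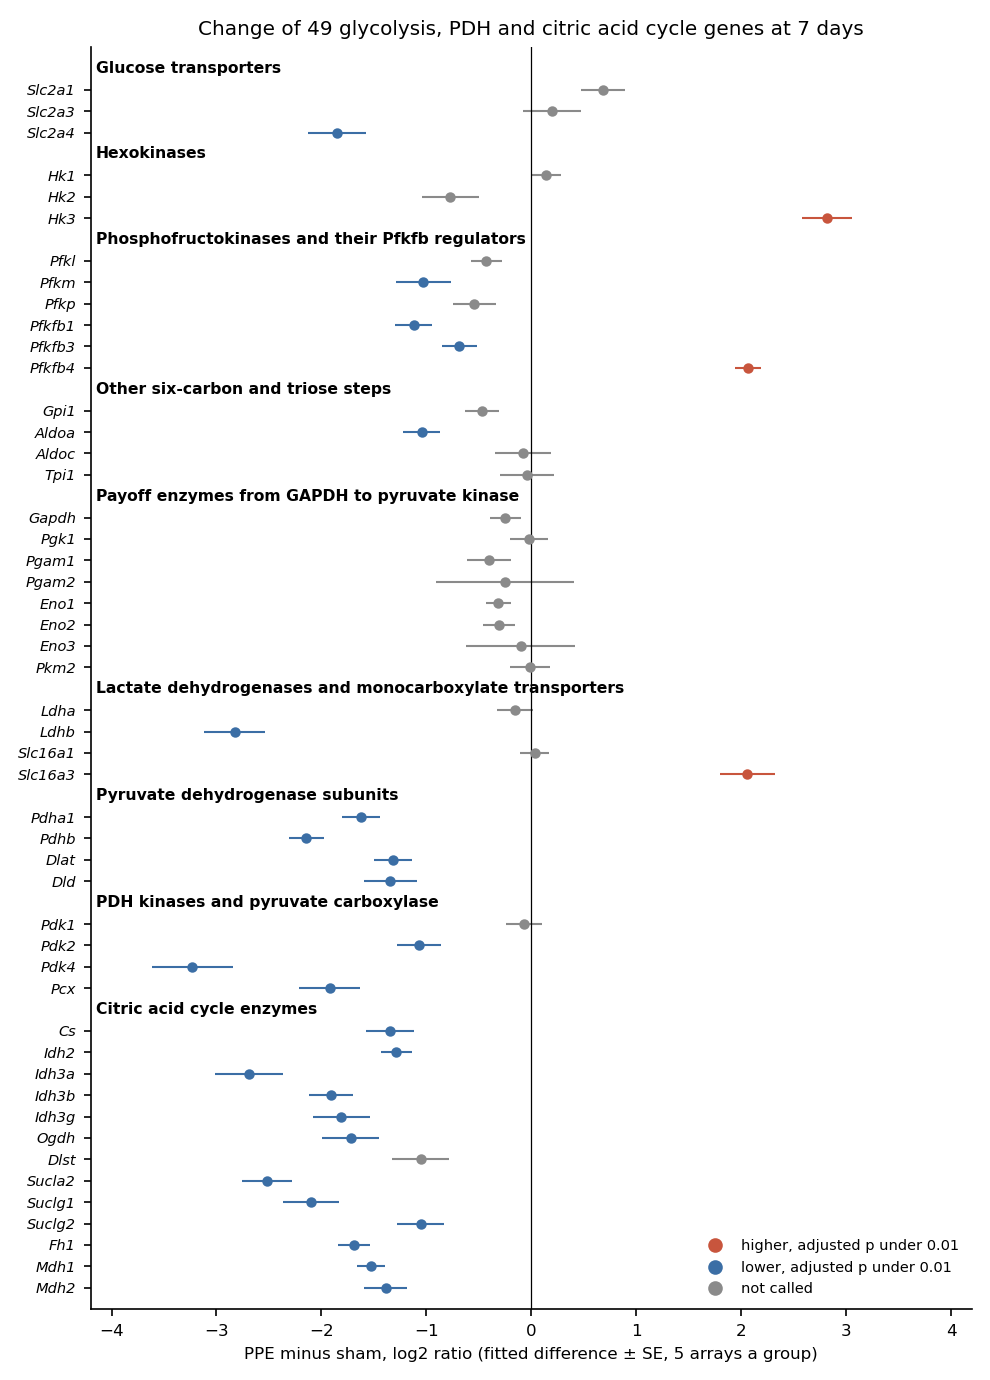
Change of each of the 49 genes (horizontal axis, PPE minus sham in log2 ratio, fitted difference ± SE, 5 arrays a group), in the order of the pathway from top to bottom. Changes of glycolysis genes lie between -2.83 and 2.81 on both sides of 0, and those of all 21 PDH and citric acid cycle genes lie between -3.23 and -0.07.

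The mean over the 28 glycolysis genes was -0.25 ± 0.27 (SD, n = 5) on the sham arrays and -0.42 ± 0.23 on the PPE arrays. Their ranges, -0.62 to 0.02 and -0.67 to -0.13, overlapped over most of their length. The mean over the 21 PDH and citric acid cycle genes was 1.47 ± 0.41 on the sham arrays, from 0.80 to 1.86, and -0.19 ± 0.22 on the PPE arrays, from -0.53 to 0.06. On each array the glycolysis mean was set against the other mean. This difference ran from -1.96 to -1.42 in sham and from -0.40 to -0.14 in PPE, so that it was 1.49 larger in PPE and no array of one group reached the range of the other. The difference between the 2 medians, 1.38, lay between 1.25 and 1.48 in all 23 alternative settings and was 1.42 when each array was centred on its median in place of loess. The medians themselves depended on the scaling. With median centring the median of all genes moved to 0.41, that of glycolysis to 0.55 and that of PDH and the citric acid cycle to -0.87, and none of the 19 falls was then called (adjusted p from 0.0726 for Pdk4 to 0.775 for Cs). The change of a single gene is thus given relative to the scaling by loess.

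**Figure D2:**
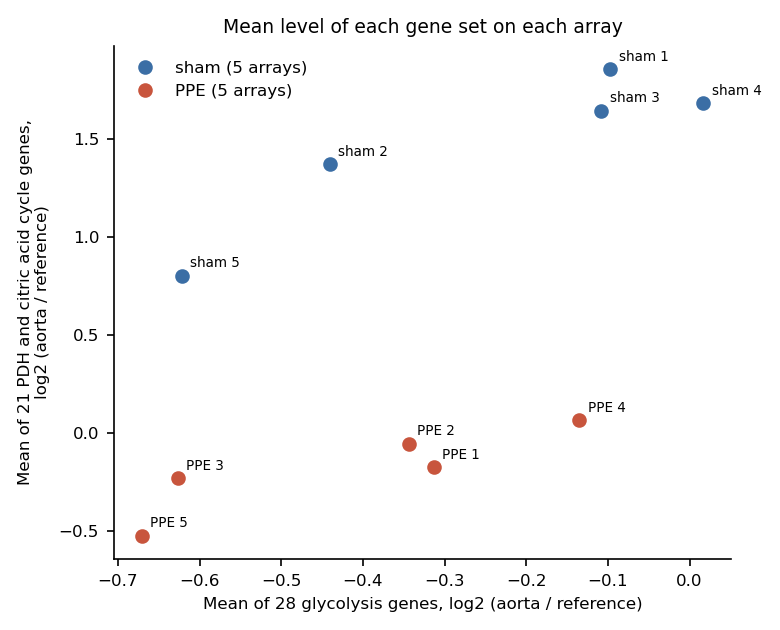
Mean log2 ratio of aorta over reference of the 28 glycolysis genes (horizontal) against that of the 21 PDH and citric acid cycle genes (vertical), with 1 point for each array. Sham arrays lie between 0.80 and 1.86 on the vertical axis and PPE arrays between -0.53 and 0.06, while both groups share most of the horizontal range.

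Cell type markers moved with these values, and their part in the results was not tested. Of 10 brown fat markers, the fat type richest in mitochondria, all 10 were lower in PPE, with a mean level from 3.58 to 4.61 in sham and from 0.43 to 1.69 in PPE. Among them, Ucp1, the uncoupling protein that defines brown fat, fell by 2.94, and Cox8b, a cytochrome oxidase subunit of heart, muscle and brown fat, changed by -2.43. Elovl3 was above background on 5 of 5 sham arrays and 0 of 5 PPE arrays. Of 11 smooth muscle markers, 9 were lower (mean level 3.29 to 4.49 in sham, 1.71 to 2.87 in PPE). Markers of fat cells in general were lower for 2 of 9, with overlapping mean levels of 4.31 to 5.40 and 3.45 to 4.90. Of 12 macrophage markers, 10 were higher (0.45 to 0.99 in sham, 2.60 to 3.49 in PPE), as were 8 of 10 neutrophil markers, 5 of 8 T cell, 5 of 8 fibroblast and 7 of 9 proliferation markers. Testing required a red signal well above background on 5 or more arrays. The neutrophil markers Mmp8 and Ngp and the proliferation marker Bub1 reached this on 0 sham and 5 PPE arrays. They were tested through PPE alone and could enter only as rises, as Elovl3 could only as a fall. Cxcr2, Ltf and Mpo reached it on 1 sham and 5 PPE arrays. The neutrophil and proliferation counts were thus partly set by this filter. None of 10 endothelial markers was called. Skeletal muscle markers were lower for 1 of 11 (9.09%), with mean levels from 1.29 to 4.51 in sham and 0.78 to 3.82 in PPE. Heart muscle markers were higher for 1 and lower for 3 of 8 (12.5% and 37.5%). Among all genes tested, 13.9% were higher and 9.96% lower. The share of skeletal muscle markers that were lower and of heart muscle markers that were higher was thus near that of all genes.

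Among the glucose transporters, Slc2a4 (GLUT4), the insulin-responsive transporter of muscle and fat, was lower in PPE. It stood at 5.62, 5.09, 4.73, 5.66 and 4.68 on sham arrays 1 to 5 and at 3.39, 4.04, 2.97, 3.46 and 2.66 on PPE arrays 1 to 5, the order used for all array values below. Every PPE array was below every sham array, and the fall was 3.61-fold (change -1.85 ± 0.28, adjusted p = 3.13e-04). Slc2a1 (GLUT1), the basal transporter of most cells, stood at -2.74, -2.69, -2.92, -2.87 and -2.97 in sham and -1.55, -2.30, -2.38, -1.76 and -2.77 in PPE. All but 1 of the PPE arrays were above the sham range, PPE 5 being the exception, and the change of 0.68 ± 0.21 did not pass the threshold (adjusted p = 0.0229). Without PPE 5 it was 0.84 and passed (adjusted p = 0.00333). Slc2a1 was called in 4 of the 23 alternative settings. Slc2a3 (GLUT3), a high-affinity transporter of neurons and white blood cells, had a change of 0.20 ± 0.28 (adjusted p = 0.629). The difference between the changes of Slc2a1 and Slc2a4, in which a shift common to all probes of an array cancels, was 2.53 (95% interval 1.84 to 3.23), with an adjusted p of 0.0147 in an exact two-sided permutation test over all relabellings of the arrays. This adjusted p belongs to the smallest p that 5 against 5 arrays allow, 0.00794, after adjustment over the 13 pairs of isoforms or family members tested in this way. The pairs were chosen with earlier results of these data known, so their p-values are descriptive.

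The hexokinases split 3 ways. Hk3, the hexokinase of white blood cells, stood at -1.53, -0.95, -1.07, -1.36 and -0.49 in sham and 2.30, 1.75, 1.11, 1.96 and 1.55 in PPE. All PPE arrays lay above all sham arrays by more than 1 log2 unit, and with a rise of 7.04-fold (change 2.81 ± 0.24, adjusted p = 5.78e-06) it had the largest increase of the 49 genes. It was also the only glycolysis gene still called with median centring. Hk1, the form found in most tissues, stood at -0.46, -0.45, -0.07, -0.50 and -0.92 in sham and at -0.35, -0.35, -0.38, -0.34 and -0.27 in PPE. The 5 PPE values fell inside the sham range (change 0.14 ± 0.14, adjusted p = 0.489), and the second Hk1 probe had a change of -0.21 and was not called either. Hk2, the insulin-regulated form of muscle and fat, stood at 0.83, 0.14, 0.44, 0.69 and -0.61 in sham and -0.24, -1.06, -0.29, -0.19 and -0.60 in PPE. Only sham 5 lay among the PPE values. The change was -0.77 ± 0.27 (adjusted p = 0.0429), and without sham 5 it was -0.997 and passed the threshold (adjusted p = 0.00354). Hk2 was called in 2 of the 23 alternative settings. Against Hk1, the change of Hk3 was higher by 2.67 (95% interval 1.89 to 3.46) and that of Hk2 differed by -0.91 (95% interval -1.50 to -0.32), both with an adjusted p of 0.0147 in the exact permutation test. With the mean of all tested probes in place of the brightest one, Hk2 and Hk1 no longer differed at the threshold (adjusted p = 0.0903, exact permutation).

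Phosphofructokinase, the committed step of glycolysis, is built from muscle (Pfkm), liver (Pfkl) and platelet (Pfkp) subunits and is driven by fructose 2,6-bisphosphate, which the Pfkfb enzymes make and break down. Pfkfb4 stood at 0.52, 0.29, 0.15, 0.34 and 0.68 in sham and at 2.59, 2.51, 2.43, 2.55 and 2.23 in PPE. The 2 groups were further apart than either was wide, a 4.19-fold rise (change 2.07 ± 0.12, adjusted p = 6.61e-07). With median centring the Pfkfb4 change was larger, 2.54, but no longer passed the threshold (adjusted p = 0.0201). A second Pfkfb4 probe did not rise above background on any of the arrays. Pfkfb1, a form of liver and muscle, was lower by 2.18-fold (change -1.12 ± 0.18, adjusted p = 4.66e-04) without overlap, from a sham range of 1.58 to 2.27 to a PPE range of 0.27 to 1.04. Pfkfb3, a form with strong kinase activity, stood at 3.66, 3.21, 3.43, 3.09 and 2.71 in sham and 2.82, 2.49, 2.43, 2.41 and 2.51 in PPE. PPE 1 lay above sham 5, and the fall was small (change -0.69 ± 0.17, adjusted p = 0.00781). Its call was lost when any single array other than sham 5 or PPE 1 was left out (adjusted p from 0.0136 to 0.0216), and its second probe changed by -0.49 without a call. With median centring the Pfkfb3 change was -0.0053 (adjusted p = 0.997), so this fall rests on loess.

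Pfkm stood at 0.21, 0.10, 0.30, 1.14 and -0.23 in sham and at -1.21, -0.20, -1.01, -0.43 and -0.75 in PPE. PPE 2 lay just above sham 5, and the change of -1.03 ± 0.26 was the called change nearest to the threshold (adjusted p = 0.00904). It was lost without any one of 8 arrays, all but sham 5 and PPE 2 (adjusted p from 0.0128 to 0.0256). Pfkp stood at -0.43, -0.62, -0.24, -0.54 and -1.15 in sham and -0.81, -1.25, -1.08, -0.85 and -1.70 in PPE, and Pfkl at -1.37, -1.53, -1.32, -1.41 and -1.76 and -1.67, -2.35, -1.98, -1.62 and -1.91. Both had groups that overlapped and neither was called (Pfkp -0.54 ± 0.20, adjusted p = 0.0584; Pfkl -0.43 ± 0.15, adjusted p = 0.0453). A dimmer second Pfkp probe, well above background on 8 arrays, had nearly the same change, -0.52 ± 0.12, and was called (adjusted p = 0.00541). The changes of Pfkp and Pfkl were not separated from that of Pfkm: the differences were 0.48 (95% interval -0.30 to 1.27) and 0.60 (95% interval -0.17 to 1.37), with adjusted p of 0.268 and 0.206 in the exact permutation test. Without PPE 2 the difference between Pfkl and Pfkm was 0.84 and passed, and it passed in no other setting in which pairs were tested.

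Next, Aldoa, the aldolase of muscle and many other tissues, stood at 0.91, 0.51, 0.75, 0.57 and 0.22 in sham and at -0.37, -0.58, -0.59, 0.06 and -0.80 in PPE. The groups did not overlap (change -1.05 ± 0.18, adjusted p = 7.07e-04), but with median centring its change was 0.01, so the direction of Aldoa rests on loess. Aldoc, the brain-type aldolase, stood at -1.49, -2.51, -1.10, -1.86 and -2.53 in sham and at -1.80, -2.07, -2.36, -1.88 and -1.79 in PPE. The PPE values lay inside the sham range (change -0.08 ± 0.26, adjusted p = 0.852). The change of Aldoa relative to Aldoc was -0.97 (95% interval -1.55 to -0.38), adjusted p = 0.0258 by exact permutation, and -0.62 with an adjusted p of 0.0774 after median centring. Gpi1, glucose phosphate isomerase, had a change of -0.47 ± 0.16 (adjusted p = 0.0403), with 2 further probes at -0.44 and -0.37. It was called without sham 5 (change -0.60, adjusted p = 0.00604), and in 2 of the 23 alternative settings in all. Tpi1, triose phosphate isomerase, had a change of -0.04 ± 0.25 (adjusted p = 0.922).

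None of the 8 enzymes from glyceraldehyde phosphate dehydrogenase to pyruvate kinase was called. Their changes lay between -0.40 (Pgam1) and -0.01 (Pkm2) after loess and between 0.31 and 0.88 after median centring, so that all 8 lay below 0 with one scaling and above 0 with the other. For Gapdh, a common reference transcript, the change was -0.25 ± 0.15 with a 95% interval of -0.56 to 0.07. Its 7 probes gave changes between -0.44 and -0.21, none of them called. One of these probes is placed on chromosome 8 and the others on chromosome 6, and transcripts of near-identical Gapdh copies cannot be told apart by such probes, so the values are uncertain. Pgk1, phosphoglycerate kinase, had an interval of -0.41 to 0.37, Pkm2 of -0.43 to 0.40 and Eno1, the enolase of most tissues, of -0.57 to -0.05. A change of 1 log2 unit in either direction lay outside the intervals, after loess, of Gapdh, Pgk1, Pgam1, Eno1, Eno2 and Pkm2, but inside those of the muscle isoforms Pgam2 (-1.69 to 1.20) and Eno3 (-1.24 to 1.04).

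Pgam2 and Eno3 were the members that varied most within a group, with SDs of 1.32 and 1.02 in sham and 1.13 and 0.91 in PPE. Pgam2 stood at -0.06, -1.65, -0.14, 1.84 and -1.02 in sham and at -1.33, 1.06, -1.47, 0.43 and -0.96 in PPE, and Eno3 at -1.45, -1.97, -1.53, 0.54 and -1.79 and at -1.95, 0.06, -2.29, -1.05 and -1.47. In both genes sham 4 and PPE 2 were the highest arrays of their groups. These arrays also had the highest skeletal muscle marker levels of their groups, 4.51 and 3.82. Across the 10 arrays, Eno3 followed the mean of the 11 skeletal muscle markers with Pearson's r of 0.905 and Spearman's rho of 0.891 (permutation p = 0.00021 and 0.00118, the same after adjustment over 2 genes for Eno3). For Pgam2 the values were 0.93 and 0.915 (permutation p = 6e-05 and 0.00037, adjusted 0.00012 and 0.00074). Without sham 4 and PPE 2, r was 0.749 for Eno3 and 0.802 for Pgam2. Both genes were taken for this relation after their values had been seen, and they are themselves genes of skeletal muscle. The changes of these isoforms were not separated from those of their relatives: the difference between the changes of Pgam1 and Pgam2 was -0.16 (95% interval -1.90 to 1.58), that of Eno1 and Eno3 -0.22 (95% interval -1.55 to 1.12) and that of Eno2, the neuronal enolase, and Eno3 -0.21 (95% interval -1.50 to 1.09).

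**Figure D3:**
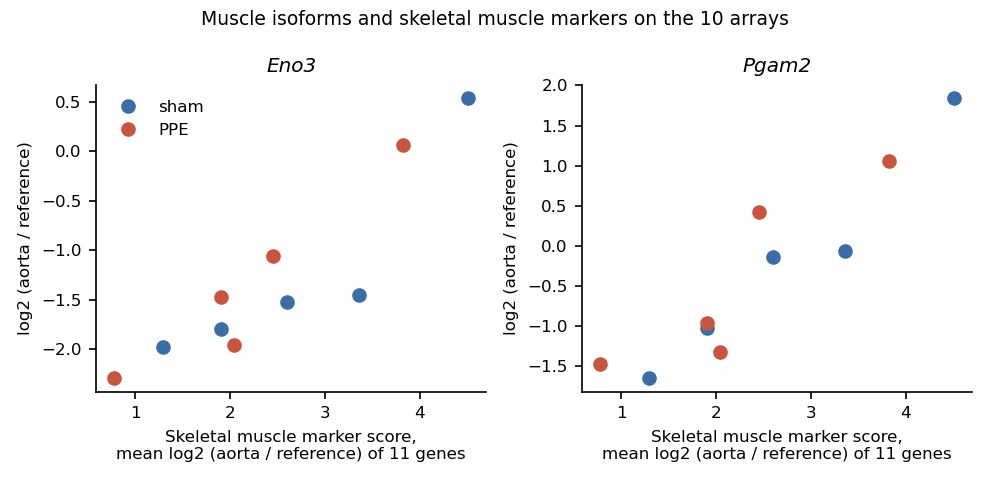
Log2 ratio of aorta over reference of the muscle isoforms Eno3 and Pgam2 (vertical) against the mean log2 ratio of 11 skeletal muscle markers (horizontal), 1 point for each of 5 sham and 5 PPE arrays. The ranges of the groups overlap on all axes, and sham 4 (4.51 on the horizontal axis) and PPE 2 (3.82) are at the upper right.

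At the fate of pyruvate, the 2 lactate dehydrogenase subunits parted. Ldha, the subunit that favours making lactate, stood at -0.85, -1.44, -1.14, -1.28 and -1.59 in sham and -1.25, -1.32, -1.50, -1.12 and -1.88 in PPE. The groups overlapped (change -0.15 ± 0.17, adjusted p = 0.547, 95% interval -0.53 to 0.23), and its 2 further probes changed by -0.18 and -0.22. Ldhb, the heart-type subunit that favours using lactate, stood at 2.52, 1.95, 2.45, 2.67 and 1.35 in sham and at -0.83, -0.12, -0.70, -0.17 and -1.37 in PPE. Its lowest sham array was more than 1 log2 unit above its highest PPE array, and the fall of 7.09-fold (change -2.83 ± 0.29, adjusted p = 2.41e-05) was the largest among the glycolysis genes. The change of Ldha relative to Ldhb was 2.67 (95% interval 2.17 to 3.17), adjusted p = 0.0147 in the exact permutation test, and 2.79 after median centring.

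Slc16a3 (MCT4), the monocarboxylate transporter of cells that export lactate, stood at -1.85, -1.89, -1.92, -1.63 and -1.81 in sham and at 0.97, -0.51, 0.06, 0.85 and -0.16 in PPE. The sham values lay close together and all PPE values were above them, though spread more widely, a 4.17-fold rise (change 2.06 ± 0.26, adjusted p = 9.09e-05). Its second probe rose by 2.25. With median centring the Slc16a3 change was 2.66, also larger than after loess, and missed the threshold (adjusted p = 0.034). Slc16a1 (MCT1), the widespread transporter that also takes up lactate, stood at 0.00, -0.02, -0.21, 0.26 and 0.03 in sham and 0.08, 0.20, -0.19, -0.20 and 0.33 in PPE, with no shift between the groups beyond their spread (change 0.03 ± 0.13, 95% interval -0.26 to 0.33). Its only probe was dim, with a mean log2 brightness of 7.24 beside 6.13 for the undetected second Pfkfb4 probe. The background correction draws dim probes towards 0. A change of Slc16a1 may thus be understated, here and in its pair with Slc16a3. Slc16a3 rose relative to Slc16a1 by 2.03 (95% interval 1.21 to 2.84), adjusted p = 0.0147 by exact permutation.

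**Figure D4:**
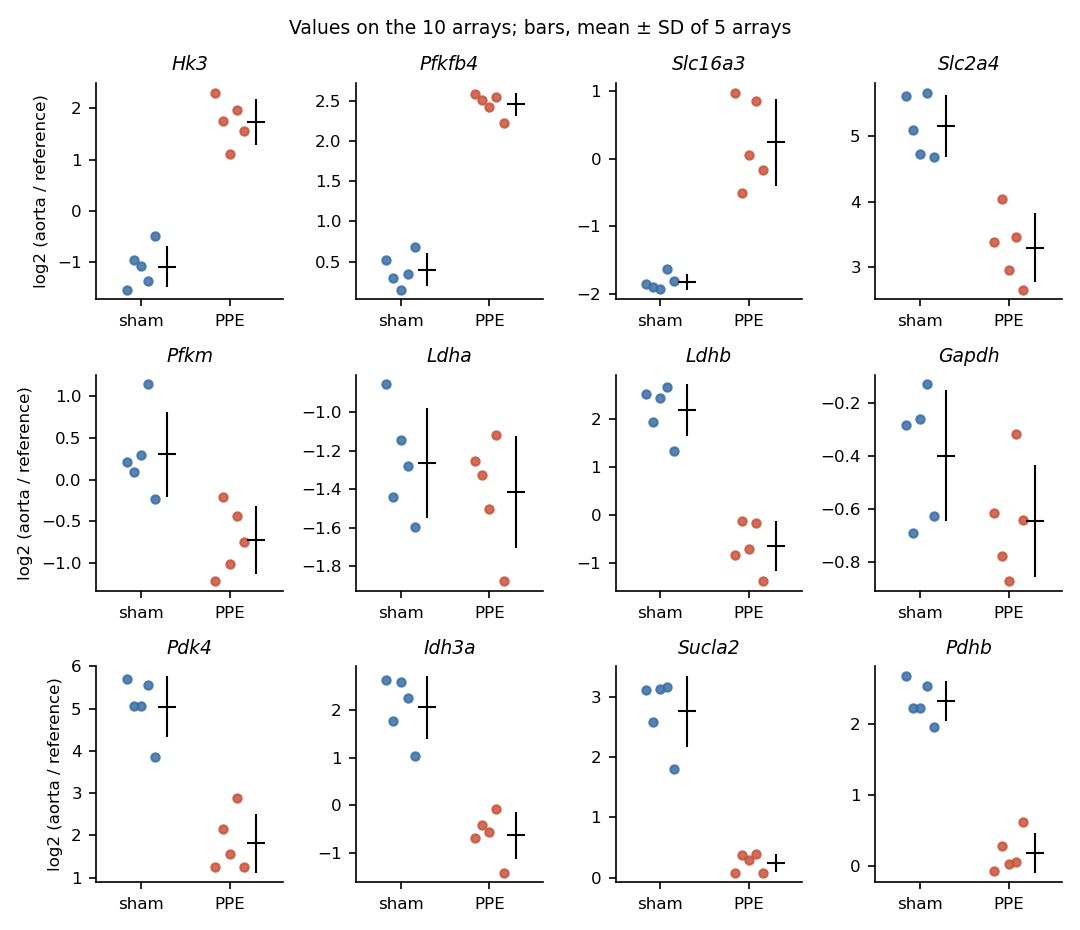
Log2 ratio of aorta over reference (vertical, own scale in each panel) of 12 genes on 5 sham and 5 PPE arrays; points are arrays and bars the mean ± SD. Groups are apart for Hk3, Pfkfb4, Slc16a3, Slc2a4, Ldhb, Pdk4, Idh3a, Sucla2 and Pdhb, and overlap for Pfkm, Ldha and Gapdh.

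All 4 PDH subunit genes were lower in PPE without overlap between groups. Pdhb, the E1 beta subunit, stood at 2.69, 2.23, 2.23, 2.54 and 1.97 in sham and at -0.07, 0.29, 0.04, 0.06 and 0.62 in PPE. The gap between the groups was wider than the range of either, and the fall was 4.42-fold (change -2.14 ± 0.17, adjusted p = 3.47e-06). A second probe changed by -2.04, and a dim further probe, designed on a separate cDNA and placed at chr14:9003605-9003664 on mm9, by -0.57 without a call. Pdha1, the E1 alpha subunit coded on the X chromosome, changed by -1.62 ± 0.18, Dlat, the E2 core, by -1.32 ± 0.18 and Dld, the E3 subunit shared with the oxoglutarate dehydrogenase complex, by -1.34 ± 0.26 (adjusted p = 4.33e-05, 1.65e-04 and 0.00166). The second Dld probe changed by -1.26 without a call.

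The PDH kinases switch the complex off by phosphorylation. Pdk4, the kinase induced by fasting and fatty acids in muscle and fat, stood at 5.70, 5.07, 5.06, 5.55 and 3.85 in sham and at 1.26, 2.15, 1.55, 2.87 and 1.24 in PPE. All sham arrays lay above all PPE arrays, and the fall of 9.39-fold (change -3.23 ± 0.39, adjusted p = 6.66e-05) was the largest of the 49 genes. Pdk2, the most widespread kinase, was lower by 2.1-fold (change -1.07 ± 0.21, adjusted p = 0.00181). Pdk1, a kinase known as a target of hypoxia-inducible factor, stood at -1.94, -2.18, -1.88, -2.17 and -2.22 in sham and at -1.69, -2.44, -2.21, -1.85 and -2.57 in PPE. The PPE values surrounded the sham values on both sides (change -0.07 ± 0.17, 95% interval -0.45 to 0.31), which made it one of 2 members here without a call and the one nearest to 0. The change of Pdk1 relative to Pdk4 was 3.16 (95% interval 2.15 to 4.17), adjusted p = 0.0147 in the exact permutation test. Pcx, pyruvate carboxylase, which refills oxaloacetate and is abundant in fat and liver, was lower by 3.79-fold (change -1.92 ± 0.29, adjusted p = 3.45e-04).

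Of the 13 citric acid cycle genes, 12 were lower. Cs, citrate synthase, stood at 1.65, 1.13, 1.50, 1.43 and 0.56 in sham and at -0.01, 0.17, -0.06, 0.15 and -0.72 in PPE. Every PPE array was below every sham array, with PPE 5 the lowest of its group (change -1.34 ± 0.23, adjusted p = 7.12e-04). The 3 subunits of the NAD-dependent isocitrate dehydrogenase fell in parallel: Idh3a, its catalytic alpha subunit, by 6.45-fold, Idh3b by 3.75-fold and Idh3g by 3.51-fold. Idh3a stood at 2.63, 1.76, 2.59, 2.26 and 1.04 in sham and at -0.69, -0.42, -0.56, -0.08 and -1.41 in PPE, with sham 5 lowest in one group and PPE 5 lowest in the other (change -2.69 ± 0.32, adjusted p = 6.54e-05). Idh2, the NADP-dependent mitochondrial enzyme, changed by -1.28 ± 0.14 (adjusted p = 4.39e-05).

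Ogdh, the E1 subunit of the oxoglutarate dehydrogenase complex, changed by -1.72 ± 0.27 at its brightest probe and by -1.33 at a second one, both called. Another Ogdh probe, placed at chr11:6258910-6258969 on mm9 and much dimmer, was called in the opposite direction (0.73 ± 0.16, adjusted p = 0.0042), and with the mean of the 3 probes Ogdh changed by -0.77 and was not called (adjusted p = 0.0118). Dlst, the E2 subunit of the same complex, stood at 1.79, 1.05, 1.45, 1.44 and 0.21 in sham and at 0.19, 0.33, 0.30, 0.30 and -0.45 in PPE. Only sham 5 reached into the PPE range, and the change of -1.05 ± 0.27 just missed the threshold (adjusted p = 0.0104). Without sham 5 it was -1.30 and passed (adjusted p = 0.000506). Dlst was called in 10 of the 23 alternative settings.

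Succinyl-CoA synthetase pairs the alpha subunit Suclg1 with either an ATP-forming beta subunit, Sucla2, or a GTP-forming one, Suclg2. Sucla2 stood at 3.12, 2.59, 3.13, 3.17 and 1.81 in sham and at 0.09, 0.37, 0.30, 0.39 and 0.08 in PPE, a 5.72-fold fall (change -2.52 ± 0.24, adjusted p = 1.35e-05). The PPE values lay close together and well below the lowest sham value. Suclg2 stood at 0.53, -0.18, 0.22, 0.35 and -0.41 in sham and at -0.74, -0.68, -0.97, -0.72 and -1.64 in PPE. The gap between its groups was narrow (change -1.05 ± 0.22, adjusted p = 0.00337), and its call was lost without sham 4 (change -0.99, adjusted p = 0.0112). The fall of Sucla2 exceeded that of Suclg2 by 1.46 (95% interval 1.02 to 1.91), adjusted p = 0.0147 in the exact permutation test. Suclg1 was lower by 4.28-fold, fumarase (Fh1) by 3.23-fold, the cytosolic malate dehydrogenase Mdh1 by 2.89-fold and the mitochondrial Mdh2 by 2.62-fold (changes -2.10 ± 0.27, -1.69 ± 0.15, -1.53 ± 0.13 and -1.39 ± 0.20).

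**Figure D5:**
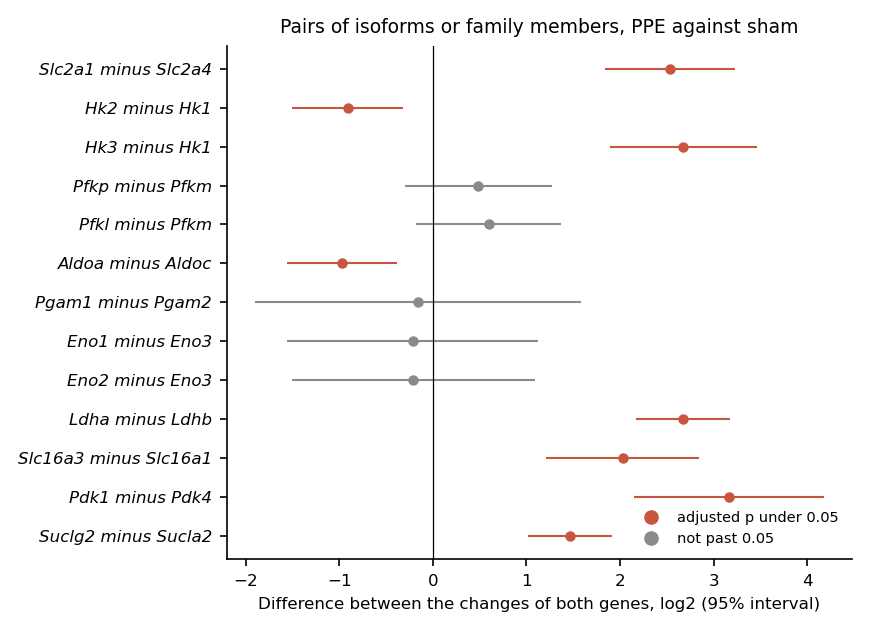
Difference between the changes of both genes of each of 13 pairs (horizontal axis, first minus second gene in log2). Bars are 95% t intervals from the SDs of 5 sham and 5 PPE arrays. Adjusted p came from an exact permutation test over the same arrays. The intervals of 8 pairs exclude 0, from -1.55 to -0.38 for Aldoa minus Aldoc up to 2.15 to 4.17 for Pdk1 minus Pdk4.

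In all, 8 of the 13 pairs changed unequally at an adjusted p under 0.05 in the exact permutation test. Since the pairs were chosen with earlier results of these data known, this count is descriptive and no independent evidence. Arrays were spread over 5 slides, of which 2 held both groups. On slide 1 (sham 1, PPE 1 and PPE 2) the median change was -0.42 for glycolysis and -1.92 for PDH and the citric acid cycle, and on slide 2 (sham 2 and 3, PPE 3 and 4) it was -0.22 and -1.56. All 9 called glycolysis genes and all 19 called PDH and citric acid cycle genes kept their direction on both slides. These arrays are part of the same fit, so the slides are no replication. Where the groups did not overlap, the direction on a slide was fixed in advance. With slide as a block, 5 glycolysis genes and 20 of the 21 others were lower. Sham 4, sham 5 and PPE 5 were alone on their slides.

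Genes of the same pathways outside the 49 were read from lists of their own, again beside 13.9% higher and 9.96% lower among all genes. Of 16 tested genes of PDH and the citric acid cycle, 10 were lower and 0 higher, with a median change of -1.08. Among them were both subunits of the mitochondrial pyruvate carrier, Mpc1 (-2.06 ± 0.14) and Mpc2 (-1.66 ± 0.15), the 4 succinate dehydrogenase subunits Sdha (-1.39), Sdhb (-1.58), Sdhc (-0.98) and Sdhd (-1.19), the PDH-binding subunit Pdhx (-0.88), the PDH phosphatase Pdp2 (-1.47) and Acly, ATP citrate lyase (-1.29). Of 7 tested further genes of glycolysis, 1 (14.3%) was higher, Pgm1 (0.84), and 3 were lower, Bpgm (-1.23), Pgm2 (-0.997) and Galm (-0.73), named as in the files. Of 8 pentose phosphate genes, 2 were higher, H6pd (0.78) and Pgd (0.67), and 2 were lower, Tkt (-1.43) and Taldo1 (-0.62). Among 9 tested genes of gluconeogenesis and the malic enzymes, 1 (11.1%) was higher, the mitochondrial malic enzyme Me2 (0.75), and 2 were lower, cytosolic Me1 (-2.10) and mitochondrial Me3 (-2.54). The shares that were higher in these last lists rest on 1 or 2 genes each.

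Of 10 transcriptional regulators of these pathways, 2 were higher and 4 were lower, beside 13.9% and 9.96% of all genes. Hif1a, which drives glycolytic genes when oxygen is low, rose (change 1.58 ± 0.27, adjusted p = 8.22e-04), as did Myc (1.10 ± 0.21). The coactivators of mitochondrial genes Ppargc1a (-2.25 ± 0.30) and Ppargc1b (-0.86 ± 0.18), the fatty acid regulator Ppara (-3.13 ± 0.39) and Epas1, the endothelial relative of Hif1a (-0.90 ± 0.23), were lower. Ppargc1a is also on the brown fat list. Of 10 hypoxia-inducible genes outside glycolysis, 0 were higher and 3 were lower, Bnip3 (-1.57), Adm (-1.05) and Egln1 (-0.96), beside 13.9% and 9.96% of all genes.

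Promoters are shown for members that moved together or apart, because several glycolysis genes are known targets of hypoxia-inducible factor, whose binding core is read as ACGTG or GCGTG. Each stretch is the 80 bases before an annotated start from RefSeq on GRCm38.p6, written on the strand of the gene, with every ACGTG or GCGTG of either strand in capitals. A motif and its reverse can overlap in CACGTG and are then counted on both strands. Slc16a3 rose and Ldha was not called, and both hold ACGTG close to the start. Hk3 and Pfkfb4, which also rose, held neither motif in their 80 bases. Among other genes not called, Gapdh held GCGTG in its 80 bases. Pgk1 held neither there, but held ACGTG further upstream, at -150 and -131 from its start. The stretches shown are thus examples and give no rule for genes that rose or fell. Ldhb, Sucla2 and Pdk4 had falls among the largest of the 49.
Slc16a3 (chr11:120948987-120949066, plus strand): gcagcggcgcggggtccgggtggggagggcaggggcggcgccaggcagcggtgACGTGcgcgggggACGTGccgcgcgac
Ldha, first start (chr7:46845724-46845803, plus strand): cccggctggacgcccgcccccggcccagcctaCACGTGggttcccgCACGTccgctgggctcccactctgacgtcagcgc
Ldhb (chr6:142507958-142508037, minus strand): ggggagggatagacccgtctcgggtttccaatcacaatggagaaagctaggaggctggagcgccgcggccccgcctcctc
Sucla2 (chr14:73552706-73552785, plus strand): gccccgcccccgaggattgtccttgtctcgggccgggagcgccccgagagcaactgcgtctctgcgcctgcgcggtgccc
Pdk4 (chr6:5496279-5496358, minus strand): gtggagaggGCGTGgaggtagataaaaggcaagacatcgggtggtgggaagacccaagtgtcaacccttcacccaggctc

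Over windows of 300 bases (250 before to 50 after a start), ACGTG was found on either strand at 1 or more starts of 15 of 26 glycolysis genes with an entry (57.7%), 6 of 20 PDH and citric acid cycle genes (30.0%) and 21.8% of 27025 genes. Counted per start, since the members have 1.58 and 1.4 starts a gene beside 1.22, the shares were 43.9%, 39.3% and 19.6%. The 39.3% rests on Ogdh, whose 6 starts lie close together and all had ACGTG in their windows: without Ogdh it was 5 of 22 starts (22.7%). Leaving out any 1 glycolysis gene gave 41.0% to 48.6%. With GCGTG added they were 73.2%, 64.3% and 43.8% of starts. Without Ogdh the 64.3% was 54.5%. Of the 3 glycolysis genes that rose, Slc16a3 had ACGTG at 2 places and Hk3 at 1, and Pfkfb4 had GCGTG only. AAGGTCA, the core bound by estrogen-related receptors, partners of Ppargc1a, was found in 1 of the 20 PDH and citric acid cycle genes (Ogdh), 3 of the 26 glycolysis genes and 5.38% of all genes. Slc2a3, Slc2a4 and Idh3a had no entry. The 27025 genes were all those with a promoter entry, whether tested on the arrays or not. ACGTG and GCGTG both hold CG, and promoters were not matched for CG content. These matches are a description of letters, and no match says only that the letters are not in this window.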

How the data were processed

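Arrays of 5 sham and 5 PPE aortas were used, grouped and numbered by the sample labels, with 1 mouse on each array. The authors scanned and extracted them with Feature Extraction 10.7.3.1. Per the study's methods, poorly hybridized arrays and outliers were removed first, and which ones is not stated. The scanner tables, as deposited, give each spot and its surroundings as a linear intensity. The authors also deposited a log10 ratio of red over green, made by the scanner software (LogRatio). The authors' series matrix holds log2 ratios, which on 100% of spots matched the processed red and green signals of the same array (tolerance 1e-04).

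Values reported here start from mean spot signals and median backgrounds. They were corrected with normexp (offset 50, which draws dim probes towards 0) and scaled by loess within arrays, using limma 3.58.1 under R 4.3.3. Control spots had weight 0 and outlier spots were dropped. Replicate spots were averaged. Testing required a red signal well above background on 5 or more of the 10 arrays, and the brightest such probe stood for its gene. Groups were compared by limma, unpaired and two-sided, with Benjamini-Hochberg adjustment over all 22520 names and a threshold of 0.01. Isoform pairs were compared by exact permutation of array differences, adjusted over 13 pairs, at 0.05. The limma fit was checked on simulated log ratios with independent noise, and the permutation test on a made-up set of separated values. Correlations used 100000 resamples (SciPy). Probe positions are on mm9 as the files give them. RefSeq promoters are on GRCm38.p6 and were matched by symbol for 46 of 49 genes.

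Members, marker lists and pairs were chosen with earlier results of these data known. All members may be named. Array values are given for the 5 largest called increases and decreases without overlap (only 3 increases qualified), both genes of each pair that passed and Hk1, Hk2, Hk3, Pfkp, Pfkm, Pfkfb3, Ldha, Ldhb, Pdk4 and Cs. Those of Pfkl, Dlst, Eno3 and Pgam2 were added after their values were seen. Alternatives varied the background correction, scaling, source of the ratio, filter, probe rule, blocks and arrays. The study's own test (SAM) was not run. The number of arrays limits the precision.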

Additional observations from a re-analysis of the deposited data

Results flagged for a closer look

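Within a group of 5 arrays, a value was picked out where its gap to the nearest other value was large for the group's range by Dixon's 95% limit. This held for 7 of 104 groups of values examined, and chance alone picks about 1 in 20. Eno3 on sham 4 was 0.54, with the next sham value at -1.45, and that array also had the highest skeletal muscle marker level of the 10. Pfkfb3 on PPE 1 was 2.82, with the next PPE value at 2.51. Further ones were low values on PPE 5: Cs at -0.72 (next -0.06), Idh3g at -1.22 (next -0.38) and Dlst at -0.45 (next 0.19). The last 2 were low values on sham 5: Pkm2 at -1.42 (next -0.83) and Suclg1 at 0.69 (next 1.73). Sham 5 and PPE 5 had the smallest share of red signals above background in their groups, 37.6% and 45.8%.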

How the results depend on the processing

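With median centring in place of loess, 408 genes were higher and 8 lower, 1 glycolysis gene was higher and 0 lower, and 0 PDH and citric acid cycle genes were lower. The medians were then 0.55 and -0.87, and the change of Aldoa turned from -1.05 to 0.014. That of Pfkfb3 was -0.0053 (adjusted p = 0.997). Of the 28 called genes, 27 kept their sign in all 23 other settings, the exception being Aldoa. With sham 5 and PPE 5 both left out (chosen after seeing the data), 0 isoform pairs passed, because 4 against 4 arrays cannot give a p below 0.0286 before adjustment, while 20 PDH and citric acid cycle genes were lower. Leaving out single arrays gave 2514 to 3615 genes higher and 1752 to 2348 lower, 3 to 4 glycolysis genes higher and 4 to 8 lower, 18 to 20 PDH and citric acid cycle genes lower and 0 higher, medians from -0.33 to -0.16 and from -1.78 to -1.53, their difference from 1.31 to 1.48, and 8 to 9 pairs.

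Deviations of same-numbered sham and PPE arrays had correlations from -0.30 to 0.52, and those of differently numbered arrays from -0.46 to 0.53. These values do not settle whether the numbers pair arrays. With a replicate block, 3024 genes were higher and 2281 lower, 7 glycolysis and 20 PDH and citric acid cycle genes were lower, and the medians stayed at -0.25 and -1.62. The block added the calls of Pfkp and Dlst and ended none among the 49. With slide or scan day (2 days, chosen after seeing the data) as a block, the call of Pfkm was lost (adjusted p = 0.0249 and 0.0125) and that of Dlst gained. Without the filter on dim probes, Pfkm and Pfkfb3 were not called (adjusted p = 0.0157 and 0.0109). Pair tests were not run with blocks.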
